A study of Mus musculus with 6 samples.

Results

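The 10 genes examined here belong to the neuronal microtubule and growth machinery of preBötC neurons in newborn mice. They are the tubulins Tuba1a, Tubb2a, Tubb2b and Tubb3, the stathmins Stmn1, Stmn2, Stmn3 and Stmn4, and the growth-associated genes Gap43 and Dcx. They were taken by name, and all 10 were found among the 49568 gene names of the deposited table and were above 0 RPKM (reads scaled to a gene's exon length and to the sample's reads on all genes) in all 6 samples. The preBötC, or preBötzinger complex, is the brainstem site that drives inspiratory breathing movements, and the comparison is of 3 Dbx1 samples, whose neurons descend from progenitors that once made Dbx1, with 3 non-Dbx1 samples from the same site. All mice were Dbx1CreERT2; Rosa26tdTomato at postnatal day 2, and each of the 6 samples pooled the contents of 15 neurons from a different mouse. Cre is made from the Dbx1 locus in this line and acts after tamoxifen, which the dams received during gestation, so a Dbx1 neuron is here a cell with tdTomato. Neurons lacking the red label made up the non-Dbx1 samples, so a Dbx1-derived cell in which Cre had not recombined the reporter would be counted there. A sample of 15 neurons is a small pool, and a lower level from fewer cells of a type cannot be told apart from less RNA per cell.

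Microtubules are polymers of alpha and beta tubulin, each encoded by several genes, and growing neurons use Tuba1a, Tubb2a, Tubb2b and Tubb3 among them. Stathmins bind free tubulin and favour microtubule disassembly, doublecortin (Dcx) binds and stabilises microtubules in migrating neurons, and Gap43 is a membrane protein of the growth cone. Several of these genes have near-identical relatives elsewhere in the genome, which bears on how short reads can be assigned to them.

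The 60 final coding bases of Tubb2a and Tubb2b, which lie close together on chromosome 13, are shown first because they show how alike these genes are. They encode the acidic tail, the part in which tubulin isotypes usually differ most. Positions are on GRCm38, from GENCODE vM21, and sequences are written 5′ to 3′ on the coding strand. Capitals mark the 3 bases of Tubb2b that differ from Tubb2a.
Tubb2a, chr13:34074468-34074527, minus strand: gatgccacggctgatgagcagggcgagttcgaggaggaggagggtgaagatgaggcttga
Tubb2b, chr13:34127471-34127530, minus strand: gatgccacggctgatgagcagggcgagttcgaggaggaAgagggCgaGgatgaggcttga
Over the whole coding sequence 1291 of 1338 bases were identical (96.5%).

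A stretch of 60 bases of Stmn1 and of Gm11223 shows a relative that is nearly identical over the whole coding sequence. Gm11223 is annotated as a processed pseudogene, an intronless copy of a messenger RNA. It holds the complete coding sequence of Stmn1 with 1 base changed in 450, and that base is the capital.
Stmn1, chr4:134472861-134472920, plus strand: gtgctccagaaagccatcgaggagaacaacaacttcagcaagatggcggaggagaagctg
Gm11223, chr4:69925777-69925836, minus strand: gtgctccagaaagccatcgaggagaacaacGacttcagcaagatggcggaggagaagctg
Stmn1 carries these 450 coding bases in 4 exons. Of the 401 windows of 50 bases in Gm11223, 351 also occurred in Stmn1.

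A shared feature of the neuronal stathmins and Gap43 is a pair of cysteines close to the start of the protein, known to be lipid-modified and to attach these proteins to membranes. Capitals mark the cysteine codons.
Stmn2, chr3:8541876-8541902, plus strand: tcactgatcTGCtccTGCttctacccg
Stmn3, chr2:181309181-181309207, minus strand: tcgctcattTGCtccTGCttctactct
Stmn4, chr14:66355621-66355647, plus strand: tctctgttcTGCtctTGCttcttgtct
Gap43, chr16:42340479-42340502, minus strand: atgctgTGCTGTatgagaagaacc

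The samples held 6464675 to 9432958 reads on genes. Neuron markers summed to between 358 and 524 RPKM per sample, microglial markers to at most 2.97, and astrocyte markers to between 21.4 and 39.5. The vessel marker Cldn5 was at 63.7 RPKM in non-Dbx1 replicate 2 and at most 1.64 in any other sample. Pecam1, also a vessel marker, was at most 0.507 in any sample, and the part of vessel RNA was not tested. Non-Dbx1 replicate 1 stood apart, with 13946 RPKM over 4 globin genes against 89.6 to 1198 in the other samples, and with 388 RPKM over the oligodendrocyte lineage markers against 16.4 to 73.6. L2FC values below are also given without this sample where that changes their sign or moves them by over 1.5 times. In its first Dbx1 sample the study found En1 but no Evx1. It stated that interneurons expressing En1 may have entered that sample inadvertently, and their part in the values here was not tested.

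Tubb2a, a beta tubulin of neurons, was the third most abundant of all 49568 genes by mean RPKM. Tubb2a reached 2174, 1516 and 1222 RPKM in Dbx1 replicates 1 to 3, against 1228, 1649 and 1800.3 RPKM in non-Dbx1 replicates 1 to 3. Dbx1 replicate 1 was the highest sample and Dbx1 replicate 3 the lowest, so the spread among Dbx1 samples spanned the other group. The means were 1637 ± 487 and 1559 ± 296 RPKM (SD, n = 3 each), with an L2FC of 0.05 (95% confidence interval −0.74 to 0.84, limma FDR = 0.993). L2FC is the log2 fold change on log2(RPKM + 1), positive where Dbx1 samples were higher. Without non-Dbx1 replicate 1 it was −0.11 and without Dbx1 replicate 1 −0.18, and its direction was therefore not settled.

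Tubb3, the beta tubulin most often used to label neurons, ranked 13th and followed the same samples. Tubb3 reached 1232, 823 and 684 RPKM in Dbx1 replicates 1 to 3, against 685, 937 and 897 RPKM in non-Dbx1 replicates 1 to 3. Dbx1 replicate 1 was again highest and Dbx1 replicate 3 lowest, and the groups overlapped. The L2FC was 0.09 (interval −0.63 to 0.81, limma FDR = 0.986), and −0.05 without non-Dbx1 replicate 1 or −0.15 without Dbx1 replicate 1. Quantile normalization also changed its sign, to −0.01.

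Tubb2b, the near-copy of Tubb2a, ranked 64th. Tubb2b reached 419, 282 and 278 RPKM in Dbx1 replicates 1 to 3, against 317, 447 and 365 RPKM in non-Dbx1 replicates 1 to 3. The groups overlapped through Dbx1 replicate 1, while the other Dbx1 samples lay below every non-Dbx1 sample. The L2FC was −0.22 (interval −0.83 to 0.39, limma FDR = 0.960). It was −0.34 without non-Dbx1 replicate 1, and from −0.41 (without Dbx1 replicate 1) to −0.09 (without non-Dbx1 replicate 2) with each sample left out in turn.

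Tuba1a, the main alpha tubulin of young neurons, ranked 8th. Tuba1a reached 1441, 853 and 796 RPKM in Dbx1 replicates 1 to 3, against 898, 1128 and 1155 RPKM in non-Dbx1 replicates 1 to 3. Dbx1 replicate 1 was above all non-Dbx1 samples and the other Dbx1 samples were below them. The L2FC was −0.09 (interval −0.83 to 0.66, limma FDR = 0.988), 0.01 under quantile normalization, and −0.20 without non-Dbx1 replicate 1. It ranged from −0.35 without Dbx1 replicate 1 to 0.07 without Dbx1 replicate 3.

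**Figure D1:**
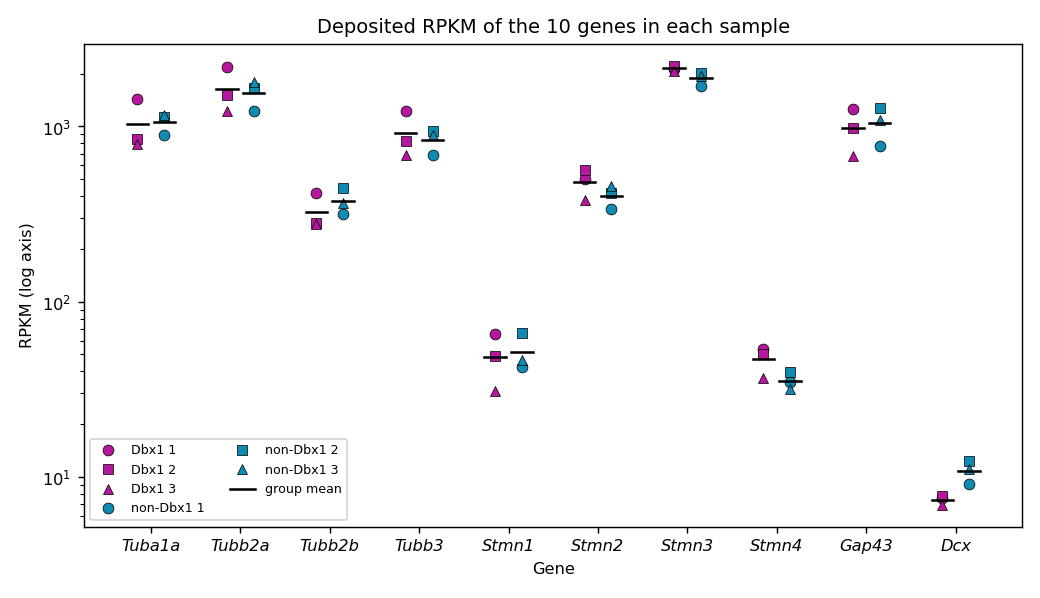
Deposited RPKM (log axis) of the 10 genes in each of the 6 samples, with Dbx1 samples in magenta, non-Dbx1 samples in blue, symbols for replicates and bars for group means. The groups overlap for 8 genes, and only Stmn3 (Dbx1 higher) and Dcx (non-Dbx1 higher) are separated.

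Stmn3, a membrane-bound stathmin of neurons, was the most abundant of the 10 genes and the second of all genes. Stmn3 reached 2140.0, 2215 and 2079 RPKM in Dbx1 replicates 1 to 3, against 1705, 2015 and 1943 RPKM in non-Dbx1 replicates 1 to 3. The Dbx1 values all lay above the non-Dbx1 values, though the nearest differed by little. The means were 2145 ± 68.2 and 1887 ± 162 RPKM (SD, n = 3 each). The exact permutation test, two-sided, gave p = 0.10, which is as low as 3 samples a group can go. Groups without overlap always give this value, so it adds nothing to the separation itself. The L2FC was 0.19 (interval −0.51 to 0.88, limma FDR = 0.968), and fell to 0.12 without non-Dbx1 replicate 1 and to 0.03 under quantile normalization.

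Stmn2, a stathmin of growing and regenerating axons, ranked 42nd. Stmn2 reached 503, 561 and 381 RPKM in Dbx1 replicates 1 to 3, against 339, 417 and 455 RPKM in non-Dbx1 replicates 1 to 3. The higher pair of Dbx1 samples exceeded all non-Dbx1 samples, and Dbx1 replicate 3 fell among them. The L2FC was 0.25 (interval −0.35 to 0.84, limma FDR = 0.954), and from 0.13 (without non-Dbx1 replicate 1) to 0.41 (without Dbx1 replicate 3) with each sample left out in turn.

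Stmn4, also membrane-bound and neuronal, was far lower and ranked 1252nd. Stmn4 reached 53.8, 50.6 and 36.8 RPKM in Dbx1 replicates 1 to 3, against 35.0, 39.5 and 31.9 RPKM in non-Dbx1 replicates 1 to 3. Only Dbx1 replicate 3 and non-Dbx1 replicate 2 were out of order between the groups. The means were 47.1 ± 9.06 and 35.5 ± 3.84 RPKM (SD, n = 3 each). Its L2FC of 0.39 was the largest positive one of the 10 genes (interval −0.17 to 0.95, limma FDR = 0.936).

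Stmn1, the cytosolic stathmin shared by many dividing and migrating cell types, ranked 1020th on its own reads. Stmn1 reached 65.5, 49.1 and 31.1 RPKM in Dbx1 replicates 1 to 3, against 42.3, 66.4 and 46.6 RPKM in non-Dbx1 replicates 1 to 3. The groups overlapped widely. The L2FC was −0.12 (interval −0.86 to 0.61, limma FDR = 0.980), and −0.25 without non-Dbx1 replicate 1. It turned to 0.16 without Dbx1 replicate 3 and to 0.07 without non-Dbx1 replicate 2.

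The pseudogene Gm11223 drew more reads than Stmn1 in every sample. The Dbx1 samples held 2778, 1965 and 1182 reads on Gm11223 against 1530, 1087 and 637 on Stmn1. The non-Dbx1 samples held 1191, 2933 and 2562 against 804, 1669 and 1291. Gm11223 therefore had 1.48 to 1.98 times the reads of Stmn1, and the 6 samples fell in the same order for both. Reads were recovered as the fewest whole reads that fit a deposited value. Because the sequences differ at 1 coding base, reads from the coding part of Stmn1 and reads from Gm11223 are hard to separate, and how many of the latter came from Stmn1 was not tested. With the Gm11223 reads added to Stmn1 its mean level was 139.7 RPKM in place of 50.2. The Stmn1 level is thus uncertain by more than its spread over samples, whereas its L2FC was −0.08 with those reads added.

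**Figure D2:**
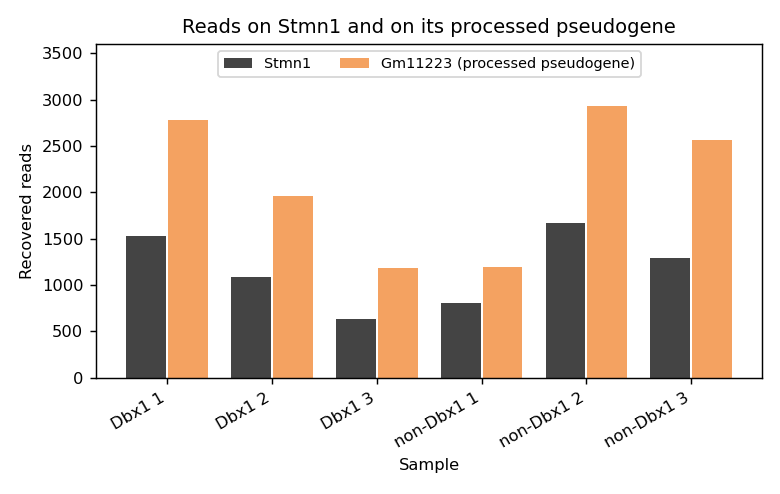
Recovered reads on Stmn1 (dark) and on its processed pseudogene Gm11223 (orange) in each sample. Gm11223 has more reads than Stmn1 in all 6 samples, from 1.48 times as many in non-Dbx1 replicate 1 to 1.98 times in non-Dbx1 replicate 3.

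Gap43, the growth cone protein, ranked 10th. Gap43 reached 1264, 977 and 680.0 RPKM in Dbx1 replicates 1 to 3, against 772, 1270.4 and 1095 RPKM in non-Dbx1 replicates 1 to 3. Dbx1 replicate 3 was lowest and non-Dbx1 replicate 2 highest, and the groups overlapped. The L2FC was −0.12 (interval −0.90 to 0.66, limma FDR = 0.984), and −0.32 without non-Dbx1 replicate 1. It turned to 0.12 without Dbx1 replicate 3 and to 0.04 without non-Dbx1 replicate 2.

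Dcx, a marker of migrating and newly made neurons, was the lowest of the 10 genes and ranked 4735th. Dcx reached 7.55, 7.76 and 6.94 RPKM in Dbx1 replicates 1 to 3, against 9.13, 12.3 and 11.04 RPKM in non-Dbx1 replicates 1 to 3. Every Dbx1 sample was below every non-Dbx1 sample. The means were 7.41 ± 0.429 and 10.8 ± 1.61 RPKM (SD, n = 3 each). The exact two-sided permutation test gave p = 0.10, its smallest value, which the separation alone fixes. The L2FC of −0.48 was the largest in size of the 10 genes, but limma did not call it (interval −1.24 to 0.27, FDR = 0.936). Without non-Dbx1 replicate 1, which had the lowest Dcx level of its group, the L2FC was −0.59 (limma FDR = 0.895). A limma-voom fit on the recovered reads gave an unadjusted p of 0.0498 and an FDR of 0.876. The progenitor and dividing cell markers, 6 genes all present in the table, summed to between 8.87 and 12.2 RPKM in the Dbx1 samples and to 24.6, 10.6 and 8.58 in non-Dbx1 replicates 1 to 3, the first mostly from Sox2 (16.8 RPKM). Vim was higher in each non-Dbx1 sample, and Cdk1 had an L2FC of 0.80, with 5.33 RPKM in Dbx1 replicate 1. Among the others, Mki67 was listed at 0 in non-Dbx1 replicates 2 and 3, Sox2 in non-Dbx1 replicate 3, and Nes and Top2a in Dbx1 replicate 2. The part of such cells in the Dcx values was not tested.

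None of the 10 genes had an FDR under 0.1 in limma, and none had an unadjusted p under 0.05. Of all 17614 genes tested, 1 had an FDR under 0.1 (0.00568%) and 916 an unadjusted p under 0.05 (5.2%). The study used a different test, DESeq2 on read counts, and reported several genes under FDR 0.1, among them Gata2 and Hif1a. The number called by limma here is therefore no measure of how alike the groups are. The groups did not overlap for 2 of the 10 genes, beside 1866 of all genes tested (10.6%). Positive and negative L2FC were equally many, 5 of each, with a median of −0.02 beside 0.01 over all genes tested. Without non-Dbx1 replicate 1 the median of the 10 genes was −0.16, and Tubb2a and Tubb3 turned negative. The intervals of 9 of the 10 genes lay within −1 and 1, that of Dcx reaching −1.24. Fold differences up to about that size are therefore compatible with these samples, and likeness of the groups was not shown.

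**Figure D3:**
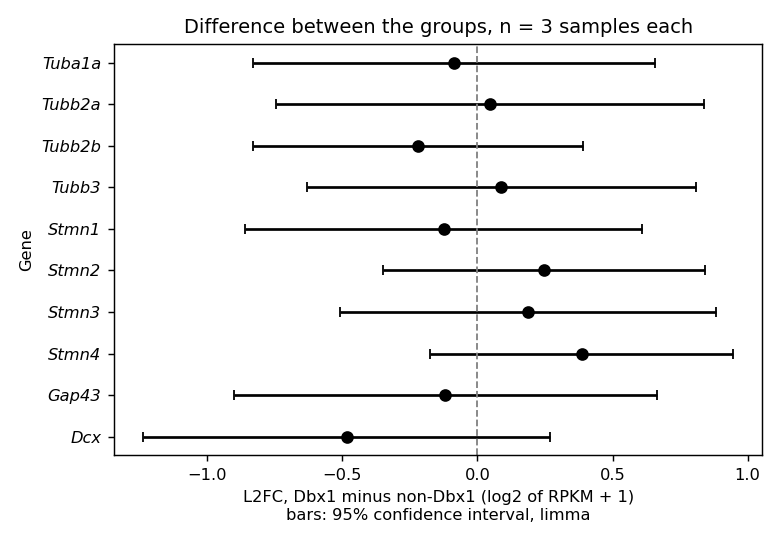
L2FC of each gene (points, Dbx1 minus non-Dbx1, log2 of RPKM + 1) with limma's 95% confidence interval (bars), n = 3 samples per group. All 10 intervals include 0, with the points between −0.48 for Dcx and 0.39 for Stmn4.

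Some samples were low or high for most of the 10 genes. Dbx1 replicate 3 was the lowest of the 6 samples for 7 genes, and Dbx1 replicate 1 or non-Dbx1 replicate 2 the highest for 8. The summed neuron markers were 524, 443 and 358 RPKM in Dbx1 replicates 1 to 3, against 374, 380.1 and 523 RPKM in non-Dbx1 replicates 1 to 3. They were thus lowest in Dbx1 replicate 3 and highest in Dbx1 replicate 1, but low in non-Dbx1 replicate 2. Values of a sample share its library, and the part of library make-up in this pattern was not tested.

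For some pairs the ratio within a sample was steadier than the levels. Tubb2a exceeded Tubb3 by 1.76 to 2.01 times in the 6 samples, a standard deviation of 0.07 on the log2 scale beside 0.32 for each gene alone. The log2 ratio of Tuba1a to Tubb3 had a standard deviation of 0.12, and that of Stmn1 to Gap43 0.14. For 20 of the 45 pairs among the 10 genes the ratio varied less than either level, and for the rest it did not. The ratio of Stmn4 to Dcx had a standard deviation of 0.54, wider than the 0.30 and 0.33 of these genes alone.

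Within groups the median standard deviation of the 10 genes was 0.32 on the log2 scale, beside 0.43 for the 4425 genes with a mean RPKM of at least 10. Stmn3 was the steadiest, with 0.10, and 0.588% of those genes varied less. Dcx had 0.15, with 3.07% varying less, and Stmn1 the widest spread, 0.44. The comparison genes were not matched for level, while 7 of the 10 genes were among the 100 most abundant. Whether the 10 were steadier than equally abundant genes was not tested. Dcx, at a mean of 9.12 RPKM, was itself below the cutoff of 10.

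The shares of Tuba1a, Tubb3 and Stmn1 in their families overlapped between the groups. Tuba1a gave 84.0%, 79.9% and 81.0% of alpha tubulin RPKM in Dbx1 replicates 1 to 3, against 82.8%, 84.8% and 83.5% in non-Dbx1 replicates 1 to 3. The difference was −2.06 percentage points (exact two-sided permutation test, p = 0.30), from −3.24 without Dbx1 replicate 1 to −1.17 without Dbx1 replicate 2. Tuba1b supplied most of the remainder, between 12.7% and 15.96%, and Tuba3a, Tuba8 and Tubal3 were listed at 0 in all 6 samples.

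Tubb2a was the leading beta tubulin, with 37.0% to 45.3% of beta tubulin RPKM. Tubb3 gave 24.4%, 23.7% and 23.8% in Dbx1 replicates 1 to 3, against 20.6%, 24.0% and 22.6% in non-Dbx1 replicates 1 to 3 (p = 0.30 by the same exact test). The lowest Tubb3 share was that of non-Dbx1 replicate 1, in which Tubb4a, a tubulin also used by oligodendrocytes, took 16.4% against at most 7.01% in the other samples. The part of oligodendrocyte RNA in that share was not tested. Without this sample the difference in Tubb3 share fell from 1.57 to 0.69 percentage points.

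Tubb2a exceeded Tubb2b by 5.19, 5.38 and 4.401 times in Dbx1 replicates 1 to 3, and by 3.88, 3.69 and 4.93 times in non-Dbx1 replicates 1 to 3. The Dbx1 ratios were higher apart from Dbx1 replicate 3, which lay below non-Dbx1 replicate 3 (exact two-sided permutation test of the log2 ratio, p = 0.20).

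Stmn3 made up 77.0% to 82.3% of stathmin RPKM and Stmn2 15.1% to 19.5%. Stmn1 gave 2.37%, 1.71% and 1.23% in Dbx1 replicates 1 to 3, against 2.00%, 2.62% and 1.88% in non-Dbx1 replicates 1 to 3 (p = 0.40 by the same exact test). With the reads of Gm11223 added, the Stmn1 share was between 3.44% and 6.89%.

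**Figure D4:**
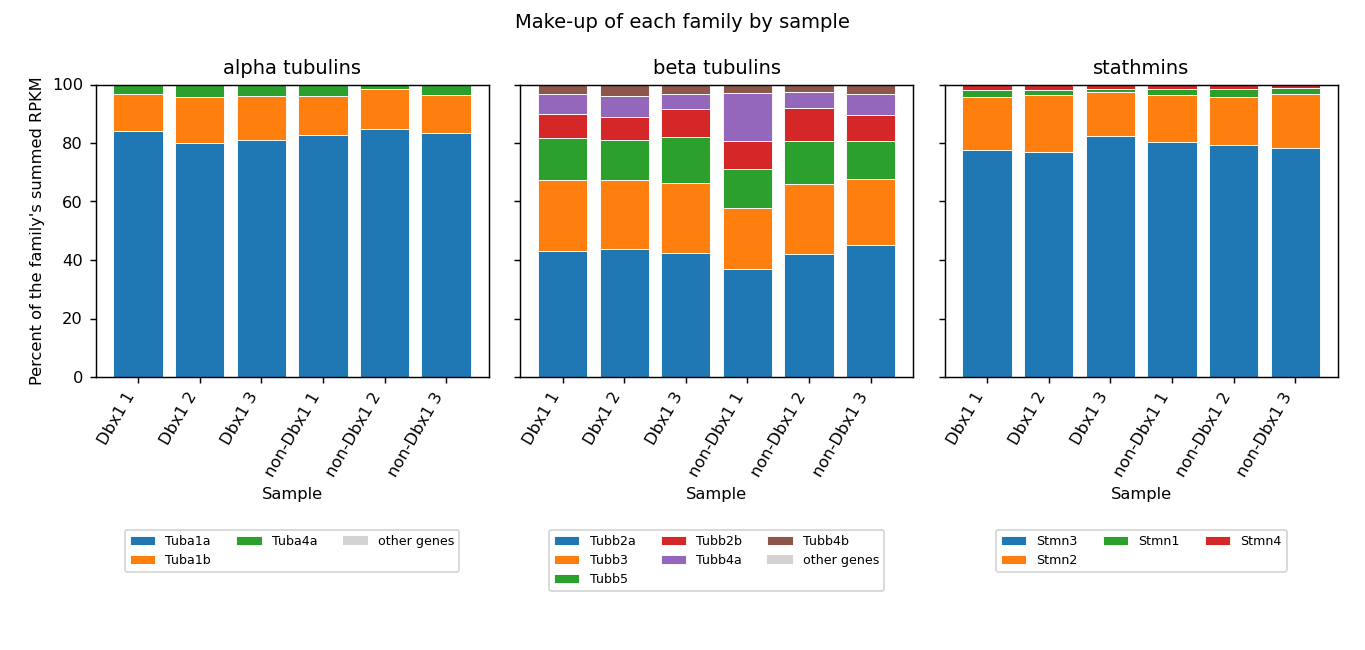
Percent of the summed RPKM of the alpha tubulins, beta tubulins and stathmins that each gene gave in each sample, with genes under 1% on average drawn together in grey. Tuba1a, Tubb2a and Stmn3 lead their families in all 6 samples, and Tubb4a reaches 16.4% in non-Dbx1 replicate 1.

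All 10 genes together held 3.42%, 2.73% and 2.59% of the summed RPKM in Dbx1 replicates 1 to 3, against 2.18%, 2.93% and 3.02% in non-Dbx1 replicates 1 to 3. The groups overlapped (exact two-sided permutation test, p = 0.60). The lowest share was that of the globin-rich non-Dbx1 replicate 1, and the difference of 0.20 percentage points became −0.06 without it.

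By mean RPKM the order was Stmn3, Tubb2a, Tuba1a, Gap43, Tubb3, Stmn2, Tubb2b, Stmn1, Stmn4 and Dcx, and it was the same in the Dbx1 samples alone and in the non-Dbx1 samples alone. Neighbours were compared by the exact sign-change permutation test of the 6 within-sample log2 ratios, adjusted over the 9 pairs. Tubb2a over Tuba1a, Tubb3 over Stmn2, Tubb2b over Stmn1 and Stmn4 over Dcx held in 6 of 6 samples. They reached the smallest exact p of 6 samples, 0.0312 (adjusted p = 0.0703). Stmn3 over Tubb2a and Gap43 over Tubb3 held in 5 of 6 samples (exact adjusted p = 0.0938). On the deposited values, Tuba1a over Gap43, Stmn2 over Tubb2b, and Stmn1 over Stmn4 held in 4, 5 and 4 of 6 samples (exact adjusted p = 0.438, 0.121 and 0.211). No threshold was set for these pairs, and no adjusted p on the deposited values was below 0.0703. With the Gm11223 reads added, Stmn1 exceeded Stmn4 by 3.33 times and in 6 of 6 samples (exact adjusted p = 0.0563). Stmn1, Stmn4 and Dcx lay outside the 1000 most abundant, while 7 were among the first 100.

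This order depended on the length by which reads were divided. The divisor in the deposited values was 3173 bases for Tuba1a, where the merged exons of GENCODE vM21 hold 1803, and 4265 for Stmn4, where they hold 1916. For Stmn3 both were 1136. With merged exon lengths, Tuba1a averaged 1839 on the RPKM scale and passed Tubb2a, at 1572, in 6 of 6 samples (exact sign-change p = 0.0312, adjusted p = 0.0469). Stmn4 then also passed Stmn1 on average, though in 4 of 6 samples only. Stmn2 over Tubb2b and Gap43 over Tubb3 each held in 6 of 6 samples with these lengths (exact sign-change adjusted p = 0.0469).

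Several of the genes share sequence with others. Windows of 50 bases were compared with all annotated genes except those overlapping the gene itself in the genome. Of the windows of Tuba1a transcripts, 35.8% occurred in none of the genes compared. The share was 50.4% for Tubb2a, 63.1% for Tubb2b and 82.1% for Stmn1, and 25.7% for Tuba1b. Tubb3, Stmn3, Stmn4 and Gap43 shared no such window. In addition, 26.2% of the exon bases of Tuba1a lay under another annotated gene, Gm49450, on the same strand, and 3.43% of those of Stmn1 under Gm23634. Windows shared only with an overlapping gene count as unique above, so the shares of Tuba1a and Stmn1 are upper limits. If reads in shared windows were never counted, but reads under Gm49450 were, the level of Tuba1a per unique window would be 5288. That of Tubb2a would be 3217, and both lie above the 2107 of Stmn3. Per unique window, Stmn2 exceeded Tubb2b in 4 of 6 samples only. The levels of Tuba1a, Tubb2a, Tubb2b and Stmn1 relative to other genes are thus uncertain. So are the ratio of Tubb2a to Tubb2b and the split between Tuba1a and Tuba1b.

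**Figure D5:**
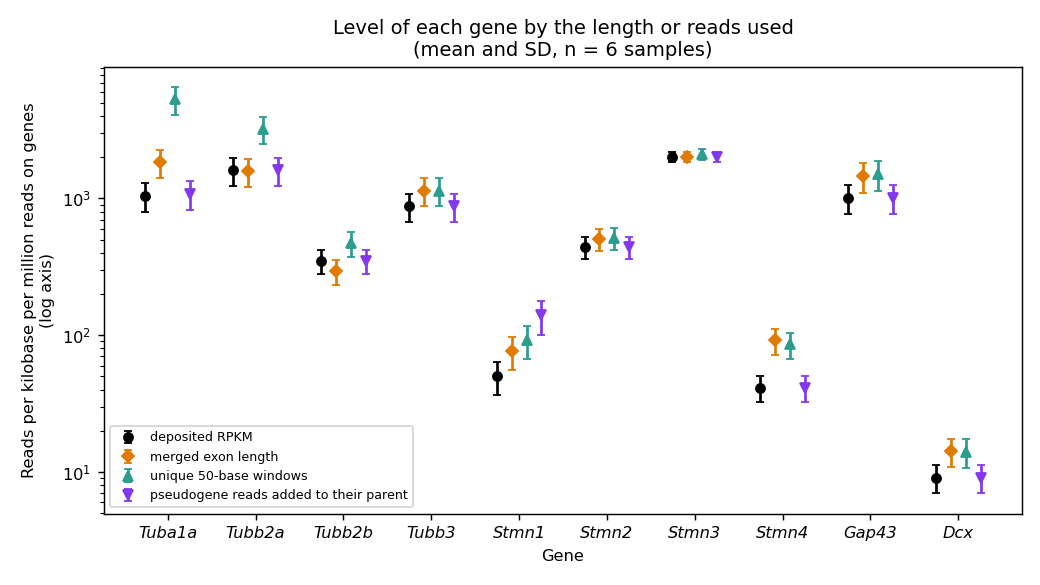
Mean level of each gene over the 6 samples (points, log axis, bars are SD) as deposited, per merged exon length, per unique 50-base window, and with reads of pseudogenes added. Tuba1a moves from 1045 to 5288 between the deposited values and unique windows, while Stmn3 stays between 2016 and 2107.

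The wider set of microtubule and growth genes gave no call either. Among all genes tested, 0.00568% were called and 10.6% had groups without overlap. Of 10 other tubulin genes tested, 6 had an L2FC above 0, none an FDR under 0.1, and 1 no overlap (Dbx1 higher). Tubb5, a broadly expressed beta tubulin, was the highest of these, with 454 to 720.3 RPKM in the Dbx1 samples against 447 to 565 RPKM in the others, and Tuba1b and Tubb4a followed. The highest L2FC was that of Tubg1, the gamma tubulin that nucleates microtubules, at 0.77 (limma FDR = 0.912), and the lowest that of Tubb4a, at −0.48 (limma FDR = 0.951), which was −0.08 without non-Dbx1 replicate 1. Every Dbx1 sample had more Tubg1 (33.7 to 50.3 RPKM) than any non-Dbx1 sample (18.4 to 30.2).

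Of 20 tubulin folding and modification genes, 9 had an L2FC above 0 and 11 below, and none was called. Groups were without overlap for 1 gene with Dbx1 higher and for 3 with non-Dbx1 higher. Over all genes tested, 0.00568% were called and 10.6% were without overlap, 5.24% with non-Dbx1 higher. Tbca, a chaperone of beta tubulin, was lower in each Dbx1 sample, with 126 to 139 RPKM against 187 to 214 (L2FC −0.56, limma FDR = 0.912). Tbcb and Tbcc were the other abundant members, and their groups overlapped. Ttll7, a polyglutamylase, had the highest L2FC, 0.70 (limma FDR = 0.943). The deacetylase Sirt2 had the lowest, −1.40 (limma FDR = 0.912), with 72.7 RPKM in non-Dbx1 replicate 1 against 14.8 and 24.5 in the others of its group, and −0.77 without that sample. Sirt2 is also abundant in oligodendrocytes, and their part was not tested.

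Of 28 microtubule-associated protein genes, 13 had an L2FC above 0 and 15 below, again without a call. Groups were without overlap for 2 genes with Dbx1 higher and for 3 with non-Dbx1 higher. The shares over all genes tested were 0.00568% called and 10.6% without overlap, 5.24% with non-Dbx1 higher. Map1b, Map1lc3a and Mapt were the most abundant, and their groups overlapped. Map9 had the highest L2FC, 0.73 (limma FDR = 0.951), but −0.04 without non-Dbx1 replicate 1, in which it measured 3.61 RPKM against 35.3 and 13.3 in the others of its group. Nde1 had the lowest, −1.37 (limma FDR = 0.912), from 0, 1.41 and 0 RPKM in Dbx1 replicates 1 to 3, against 2.58, 3.22 and 1.75 RPKM in non-Dbx1 replicates 1 to 3.

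Of 20 growth cone and axon growth genes tested, 8 had an L2FC above 0 and 12 below. Groups were without overlap for 1 gene with Dbx1 higher and for 3 with non-Dbx1 higher. Of all genes tested, 10.6% were without overlap, 5.24% with non-Dbx1 higher. Nrn1, a surface protein that promotes neurite growth, had the highest, 2.09, with 158, 339 and 77.9 RPKM in Dbx1 replicates 1 to 3, against 42.7, 70.1 and 16.6 RPKM in non-Dbx1 replicates 1 to 3. The groups did not overlap, and limma did not call it (unadjusted p = 0.00865, FDR = 0.804). Nrn1 was picked for its L2FC in these same samples, so neither value adds support of its own. An unadjusted limma p under 0.05 was found for 5.2% of all genes tested. Marcksl1 and Tmsb4x, which act on the actin cytoskeleton, were lower in each Dbx1 sample (L2FC −0.56 and −0.35, limma FDR = 0.912 and 0.940), while Basp1, a partner of Gap43 at the membrane, overlapped between groups. Sox11 had the lowest L2FC, −0.64 (limma FDR = 0.952), and −0.06 without Dbx1 replicate 2.

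Among the 5 neuronal intermediate filament genes none was called, and no group pair was separated, beside 0.00568% and 10.6% of all genes tested. Nefl, Ina and Nefm were the most abundant. Nefm had the highest L2FC, 0.59 (limma FDR = 0.949), which was 0.36 without non-Dbx1 replicate 1 and 0.18 without Dbx1 replicate 3. Prph had the lowest, −0.50 (limma FDR = 0.983), with 94.96 RPKM in non-Dbx1 replicate 3 and at most 9.09 elsewhere. The L2FC of Prph was −2.11 without non-Dbx1 replicate 1 and 1.18 without non-Dbx1 replicate 3.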

How the data were processed

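RNA of 6 samples of 15 neurons was reverse transcribed and amplified (SMART-Seq v4), and sequenced as single reads of at most 50 bases. The authors aligned reads to mm10 with TopHat2, sorted them with SAMtools, counted reads uniquely mapped to genes without regard to strand with HTSeq, and deposited RPKM values computed with exon lengths from an Ensembl annotation, without scaling between samples. Versions of TopHat2, SAMtools and HTSeq and the annotation release were not given in the sources used here. Depth was 6464675 to 9432958 reads on genes per sample, recovered from the steps between RPKM values (tolerance 0.001 of a read). Recovered reads cover counting error only, since amplified complementary DNA gives no independent molecules.

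Differences were tested as 3 Dbx1 against 3 non-Dbx1 samples with limma 3.58.1 (R 4.3.3, mean-variance trend) on log2(RPKM + 1) over the 17614 genes above 0 in at least 3 samples. Two-sided p values were adjusted by Benjamini and Hochberg, and genes with FDR under 0.1 were called. A count test was not the main test because the deposited unit is RPKM, and limma-voom on recovered reads (at least 10 in at least 3 samples) was an alternative. Single quantities used exact two-sided permutation tests in scipy 1.17.1. The limma script was tested on simulated data. Lengths, windows of 50 bases, coding sequences and pseudogenes (at least 20% of their 25-base windows in a gene) came from GENCODE vM21 on GRCm38, the same assembly as mm10. It matched 47214 of 49568 names (95.3%). Other values were computed with Python 3.11.15, numpy 2.4.6 and pandas 2.3.3, and plotted with matplotlib 3.10.9.

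The 10 genes and the other gene lists were chosen with earlier results of these data known. Named from the other lists were the 3 genes with the highest mean RPKM, those with the highest and lowest L2FC, and any with FDR under 0.1. Alternatives were a pseudocount of 0.1, quantile normalization, median-of-ratios size factors, no trend, a filter of RPKM above 0 in at least 1 sample, one of RPKM 1 or more in at least 3, the replicate number as a block, each sample left out, limma-voom, and for the share of all 10 genes the share of reads. Merged exon lengths, unique windows and added pseudogene reads were chosen after seeing the data.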

Additional observations from a re-analysis of the deposited data

How the results depend on the processing

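No alternative called any of the 10 genes, and the lowest limma FDR of a gene in any was 0.784. Tubb2b, Stmn2, Stmn3, Stmn4 and Dcx kept their direction in all 15 alternatives, though Stmn3 fell from 0.19 to 0.035 under quantile normalization. The other 5 did not. Quantile normalization turned Tuba1a to 0.0068 and Tubb3 to −0.0093. Leaving out each sample in turn gave L2FC ranges of −0.355 to 0.073 for Tuba1a, −0.18 to 0.24 for Tubb2a, −0.15 to 0.27 for Tubb3, −0.37 to 0.16 for Stmn1, −0.33 to 0.12 for Gap43, −0.41 to −0.09 for Tubb2b, 0.13 to 0.41 for Stmn2, 0.12 to 0.24 for Stmn3, 0.28 to 0.55 for Stmn4 and −0.59 to −0.39 for Dcx. The other differences, in the same way, ranged from −3.24 to −1.17 percentage points for the Tuba1a share, 0.69 to 2.35 for the Tubb3 share, −0.69 to −0.12 for the Stmn1 share, and 0.19 to 0.395 for the log2 ratio of Tubb2a to Tubb2b. The difference in the summed share of the 10 genes ranged from −0.063 to 0.364 percentage points and turned negative without Dbx1 replicate 1 (−0.05) or without non-Dbx1 replicate 1 (−0.063). The median L2FC of the 10 genes ranged from −0.25 to 0.18 with samples left out.

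The 1 gene called among all genes became 0 with a pseudocount of 0.1, with genes above 0 in at least 1 sample and with limma-voom, and 3 without the trend. It was 0 to 1 with samples left out, being 0 without non-Dbx1 replicate 3. The cause was not tested. Unadjusted p values under 0.05 numbered 974, 777, 737 and 1026 where it was 0. Labels share replicate numbers, but each sample was a mouse of its own, and the correlations of same-numbered samples were −0.107, 0.02 and −0.05. With the replicate block 0 genes were called (819 at an unadjusted p under 0.05), and none of the 10. Merged exon lengths moved 4 genes in the order of levels and unique windows moved 2, as the lengths themselves differ, while added pseudogene reads moved none but widened Stmn1 over Stmn4 from 1.20 to 3.33 times. With 3 small pools a group, L2FC intervals of the 10 genes reached −1.24 to 0.95, which limits what can be seen, and the medians of all genes shifted by under 0.1 between scalings.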
